A study of Rattus norvegicus with 15 samples.

Results

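Genes for building and moving cilia were followed in the olfactory epithelium of single rats. The group held every probe whose gene name on the array begins as an intraflagellar transport gene (Ift), a Bardet-Biedl syndrome gene (Bbs), a dynein chain (Dnah, Dnai, Dnal, Dnch), a tektin (Tekt), a radial spoke gene (Rsph), a sperm-associated antigen (Spag) or a kinesin-2 motor (Kif3, Kif17). The transcriptional regulators Foxj1 and Rfx were included. This name rule uses no measured value. It found 70 probes with 44 gene names, among 41012 probes with 35561 gene names on the array. No probe carried an Ift name of the IFT-A complex, an Rsph name or the name Kif17. The radial spoke gene Rsph1 was on the array as Tsga2, outside the name rule, and was counted with the further axoneme genes. The IFT-A subunits Wdr19 and Wdr35 were on the array under those names and were counted with the further transport genes.

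A cilium is a membrane-covered extension built around a microtubule core, the axoneme. Its parts are carried in by kinesin-2 and out by dynein-2, bound to protein trains called intraflagellar transport (IFT) particles, while the BBSome, a complex of Bbs proteins, carries membrane proteins along. Olfactory sensory neurons hold their odorant receptors in long cilia that do not beat for lack of dynein arms in mammals, whereas the multiciliated cells of the neighboring respiratory epithelium carry beating cilia driven by axonemal dyneins. Transport genes therefore serve both kinds of cilium, and the dynein arm genes are known from beating cilia.

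The samples were 8 Brown Norway rats aged 6 weeks, 4 males (rats 1, 2, 5 and 6) and 4 females (rats 3, 4, 7 and 8), with the epithelium of each nostril taken apart as A or B. Male 1 had nostril A only, so that 7 arrays came from males and 8 from females, and 7 rats gave a pair of nostrils. Left and right are not told apart by the labels, and the rats were naive. Values are log2 levels relative to the median of the array, with a floor at -3.32, and levels of different probes are not comparable. The arrays lay on 4 slides, with both nostrils of a rat on the same slide in every rat but female 3.

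Of the 70 probes, 53 were expressed, meaning that the scanner software called them well above background on at least 11 of the 15 arrays. The same held for 65.1% of all probes. Another 8 were weakly expressed (1 to 10 arrays) and 9 were detected on no array. Between 52 and 59 of the 70 were detected on any single array, and none was saturated. Every one of the 16 transport probes was expressed (5 BBSome, 5 IFT-B, 5 kinesin-2 and 1 dynein-2), against 30 of the 43 axoneme probes. The 9 undetected probes were 1 of 3 for Dnah11, 1 of 6 for Dnah7, 2 of 3 for Dnah8, 1 of 4 for Dnah9, 1 of 3 for Dnahc11, and the only probes of Dnahc3, Spag11 and Spag4l. Spag6, a central-apparatus protein, was detected on 2 arrays alone.

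Gene names are those of the array, several of which are older. Of the 44 names, 43 matched a current rat gene in RefSeq, and these were 42 genes. By accession or synonym, Dnch2 is now Dync2h1, the heavy chain of the dynein-2 motor, Dnahc5 is Dnah5, Dnahc3 is a further name of Dnah3, Dnalc4 is Dnal4, Spag4l is Sun5 and Spag11 is Spag11a. Dnahc11 was not matched, and its probes lie on another chromosome than those of Dnah11. Tests covered the 55 member probes detected on at least 7 arrays.

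The clearest feature of these genes was the contrast between the nostrils of single rats. In 6 of 7 rats, most axonemal dynein heavy chain probes differed between nostrils in a direction shared within the rat. B was the higher side in males 2, 5 and 6 and females 4 and 7, and A in female 8. The widest difference among tested probes was 3.46-fold, at 1 dim probe of Dnah6 that stood at -1.81 in nostril A of male 2. No transport probe of the same samples was over 0.5 log2 units apart in any rat. Each such contrast sets 1 array against 1 array, nostril A of male 2 was the lowest array for 16 of the 19 heavy chain probes, and no member passed the test across rats (smallest limma adjusted p 0.781). Over the 19 tested heavy chain probes, the median of nostril B minus nostril A was 1.10 in male 2, 0.79 in female 4, 0.40 in female 7, 0.38 in male 5, 0.20 in male 6, 0.03 in female 3 and -0.41 in female 8, on the log2 scale. Over the 16 transport probes it lay between 0.02 and 0.20 in every rat, and over all 27574 probes tested between -0.05 and 0.08. With normexp background correction in place of the processed signal, the heavy chain medians were 0.50 in male 2, 0.23 in female 4 and -0.24 in female 8. They were 0.24 in male 5, 0.21 in female 7, 0.10 in male 6 and -0.04 in female 3. In female 4 that correction put the median of all probes at -0.63, that of the transport probes at -0.92 and that of the axoneme probes at -0.002. All 19 heavy chain probes were higher in nostril B of male 2, where 34.9% of all probes were. None of the 19 was higher in nostril B of female 8, where 64.6% of all probes were. In female 3 the probes were split, with 10 of 19 higher in nostril B (50.4% of all probes). The count was 18 of 19 in female 4 (54.0% of all probes), 17 in male 5 (38.9%), 17 in female 7 (53.1%) and 15 in male 6 (67.5%).

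**Figure D1:**
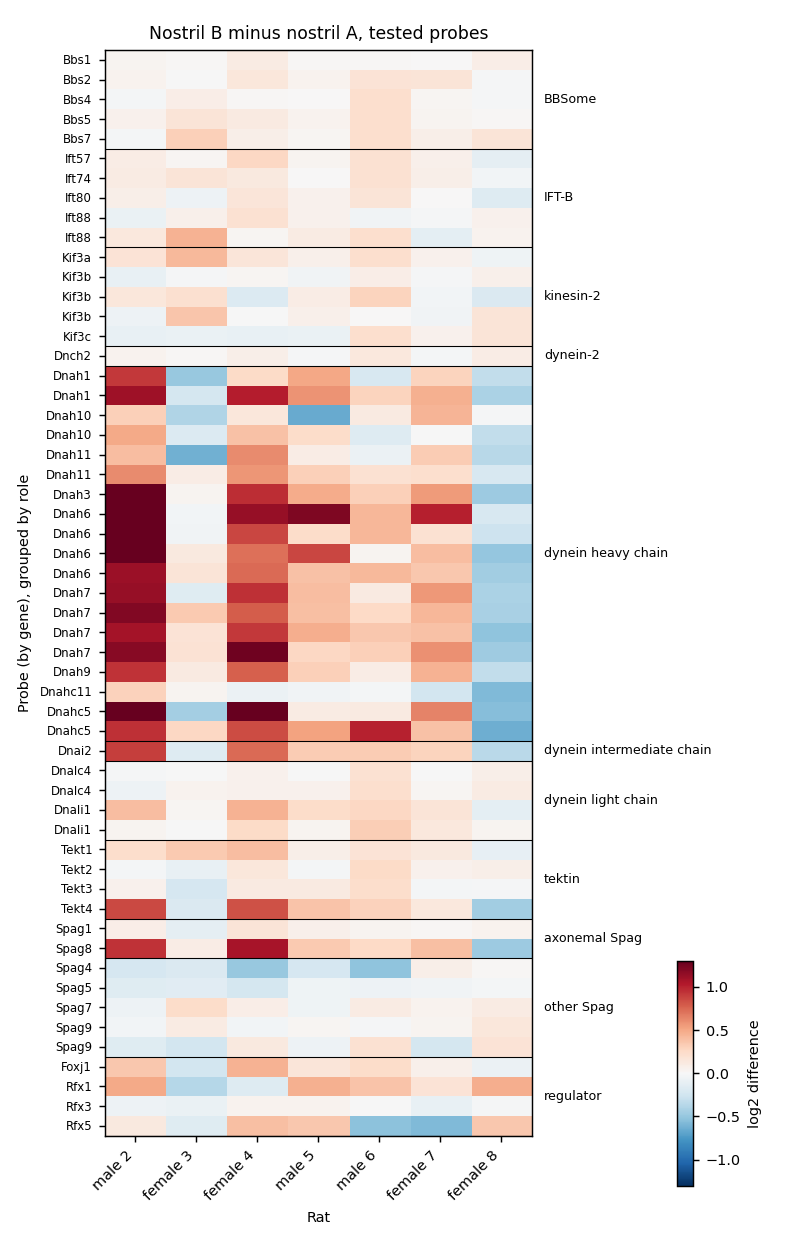
Nostril B minus nostril A (log2 difference, color, limited at 1.3 either way) for each of the 55 tested probes (rows, by gene and role) in the 7 rats with both nostrils (columns). Most heavy chain rows, with Dnai2, Tekt4 and Spag8, are red in male 2 and female 4 and blue in female 8, while the BBSome, IFT-B and kinesin-2 rows stay pale.

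Dnai2, an intermediate chain of the outer dynein arm, was measured by 1 probe on chromosome 10 (chr10:104655279-104655338, rn3). It stood at 4.69 in nostril A of male 1. From nostril A to B it went from 4.56 to 5.46 in male 2, from 5.32 to 5.65 in male 5 and from 5.75 to 6.08 in male 6. In the females it went from 5.28 to 5.12 in rat 3, from 4.80 to 5.54 in rat 4, from 5.44 to 5.72 in rat 7 and from 5.79 to 5.44 in rat 8. The nostrils of male 2 thus differed by 1.87-fold (0.90 log2 units), beside a span of 1.23 between the lowest and highest rat means. Females lay within the range of the males.

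Dnah1, an inner arm heavy chain, showed the same swings at its brighter probe. Its B minus A difference was 1.10 in male 2, -0.23 in female 3, 1.02 in female 4, 0.58 in male 5, 0.29 in male 6, 0.47 in female 7 and -0.41 in female 8. Dnah9, an outer arm heavy chain, differed by 0.94 in male 2, 0.77 in female 4 and -0.32 in female 8. For Dnah3 these 3 differences were 1.29, 0.96 and -0.47. Male 2 and female 4 lay at the high end and female 8 at the low end in each of these genes.

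**Figure D2:**
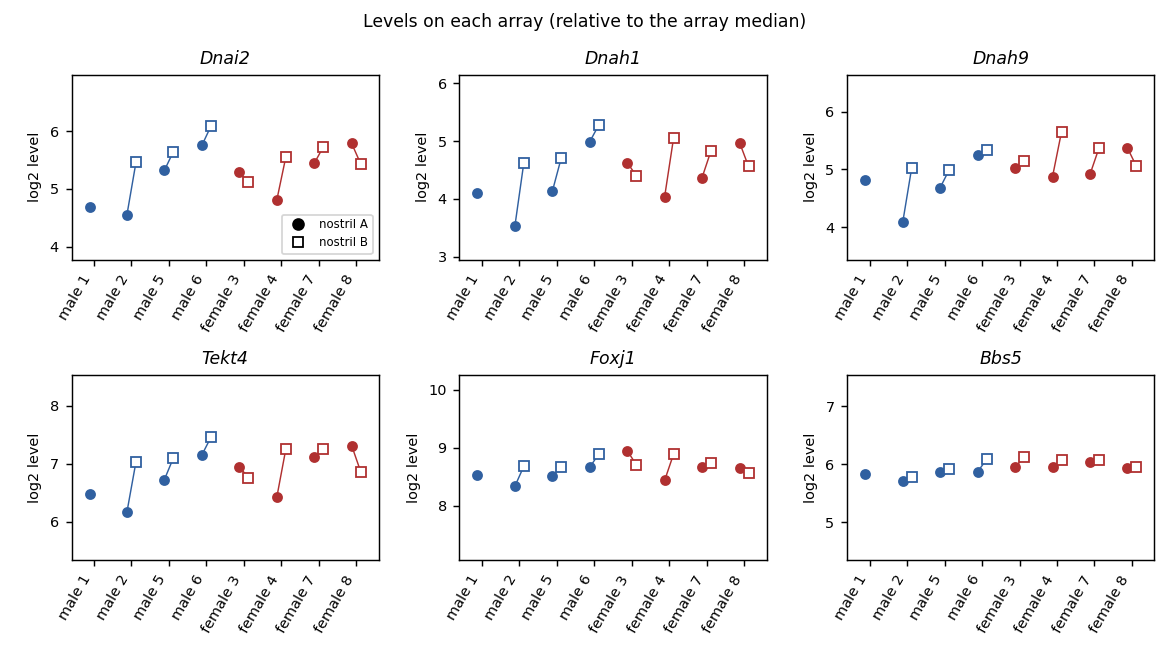
Log2 level on each array (y axis, spanning 3.2 units in every panel) of Dnai2, Dnah1, Dnah9, Tekt4, Foxj1 and Bbs5, with a line joining nostril A (filled circle) to nostril B (open square) of a rat, males in blue and females in red. The 4 axonemal genes climb steeply in male 2 and female 4 and descend in female 8, Foxj1 moves less, and Bbs5 is nearly level.

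Separate probes of one heavy chain gene were compared. The 4 expressed probes of Dnah7, an inner arm heavy chain, lie within 1 locus on chromosome 9, and their nostril differences correlated with r of 0.92 to 0.97 over the 7 rats, with the arrays shared between probes. For the 4 of Dnah6 these correlations were 0.71 to 0.92. The pair of Dnah10 probes had an r of 0.15, and in male 5 they read -0.65 and 0.24. Probes are shown from separate places in each gene because they read separate parts of a long transcript, with the coordinates of the array annotation (build rn3, minus strand). Each span is longer than the probe, as where a probe crosses from an exon to the next. No part is set in capitals, since the whole probe pairs with its target. The exon annotation of this build was not used here.
Dnah7 probe at chr9:52407653-52409993: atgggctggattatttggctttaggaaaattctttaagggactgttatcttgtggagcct
Dnah7 probe at chr9:52243557-52255858: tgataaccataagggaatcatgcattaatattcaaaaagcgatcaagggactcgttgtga
Dnah6 probe at chr4:106707208-106710850: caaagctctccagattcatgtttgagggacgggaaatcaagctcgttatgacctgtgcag
Dnah6 probe at chr4:106672916-106674322: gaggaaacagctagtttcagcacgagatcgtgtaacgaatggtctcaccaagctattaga
For the first Dnah7 probe, B minus A was 1.18 in male 2, 1.27 in female 4 and -0.46 in female 8. For the second, in the same order, it was 1.21, 0.79 and -0.42. The first Dnah6 probe gave 1.45, 0.71 and -0.50, and the second gave 1.79, 0.87 and -0.27. The 4 probes thus had the same signs in these 3 rats, with B higher in male 2 and female 4 and A higher in female 8.

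Not every axoneme gene swung. Among the heavy chains, the tested Dnahc11 probe differed by 0.30 in male 2, -0.08 in female 4 and -0.57 in female 8. B was higher in 2 of 7 rats for that probe. Among the tektins, which line the inside of doublet microtubules, Tekt4 differed by 0.86 in male 2, 0.83 in female 4 and -0.45 in female 8. Tekt1 had the same signs with smaller values, 0.23, 0.40 and -0.11. Tekt2 differed by -0.03, 0.15 and 0.08 in these rats, and Tekt3 by 0.06, 0.12 and -0.01. Spag8, a protein of the axoneme, differed by 0.94, 1.08 and -0.47, but Spag1, which serves the assembly of dynein arms in the cytoplasm, by 0.09, 0.17 and 0.04. Dnali1, an inner arm light chain, differed by 0.40, 0.45 and -0.12 at one probe and by 0.04, 0.25 and 0.04 at the other. Dnalc4 stayed between -0.06 and 0.22 in all 7 rats at both probes. Tektins, light chains and Spag1 thus divided by gene and, for Dnali1, by probe.

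**Figure D3:**
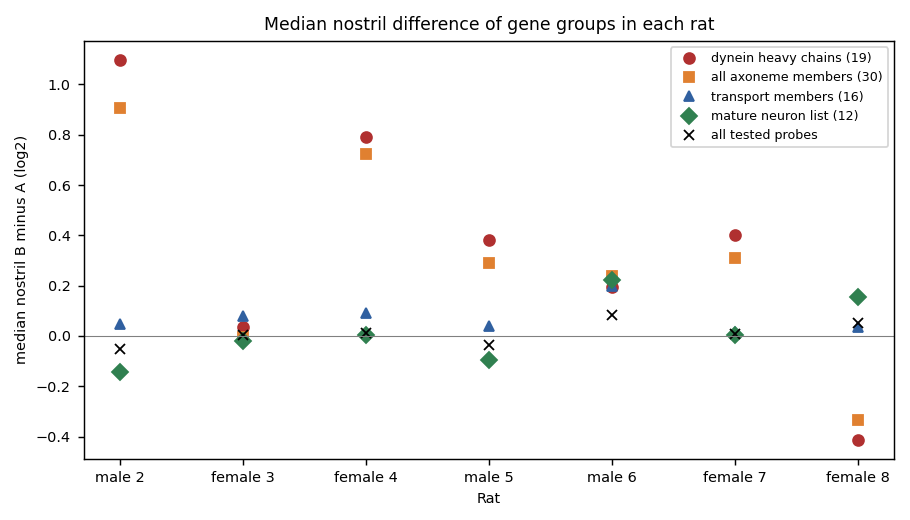
Median of nostril B minus nostril A (log2) over the tested heavy chain, axoneme and transport members, over the mature olfactory neuron list and over all tested probes (y axis), in each rat with both nostrils (x axis). Heavy chains reach 1.10 in male 2 and -0.41 in female 8, whereas the transport, neuron and all-probe medians stay between -0.14 and 0.22.

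Transport genes had small differences between nostrils, mostly with B higher (15 of 16 probes, and 55.8% of all probes). Their median over the 16 probes of the largest difference in any rat was 0.22, against 0.30 over all probes tested and 1.10 over the 19 heavy chain probes. The sets differed in signal, with mean levels from 0.32 to 7.86 for transport probes and from -1.70 to 5.03 for heavy chain probes. The part of signal level in this contrast was not tested. Differences over 0.5 in at least 1 rat were seen in 0 of 16 transport probes, 21 of 30 axoneme probes and 27.7% of all probes. Bbs5, a BBSome subunit, differed by 0.06, 0.17, 0.12, 0.04, 0.22, 0.03 and 0.02 in rats 2 to 8. Ift57, an IFT-B subunit, differed by 0.10, 0.03, 0.27, 0.04, 0.20, 0.07 and -0.11. Dnch2, the retrograde motor, lay between -0.02 and 0.14, and Kif3a, a subunit of the anterograde motor, between -0.06 and 0.42. None of these 4 genes showed the high values of male 2 and female 4 seen in the heavy chains.

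By the test across rats, with the rat as a block in limma, no member passed 1% after Benjamini-Hochberg adjustment over 27574 probes, where 0% of all probes did. The smallest adjusted p among members was 0.781, shared by several. At an unadjusted p under 0.05 there were 21 of 55 members, against 5.89% of all probes. B was the higher side in 19 of these 21, and 3.43% of all probes had B higher at that level. The 21 included 14 of the 30 axoneme probes (10 of 19 heavy chain probes), 5 of 16 transport probes and 0 of 4 regulators. The smallest p among members belonged to Dnah6 (B minus A 0.69 ± 0.20, SE), Tekt1 (0.18 ± 0.06), Dnali1 (0.20 ± 0.07) and Kif3a (0.15 ± 0.05), each with a limma adjusted p of 0.781. That Dnah6 probe was dim, with a mean level of -1.42, and was detected on 14 arrays. B was higher in 5 of 7 rats for Dnah6 and in 6 of 7 for each of Tekt1, Dnali1 and Kif3a. The exceptions to this direction were Spag4 (-0.22 ± 0.08) and Spag5 (-0.10 ± 0.04), a mitotic spindle protein that was lower in nostril B of all 7 rats. The count of 21 rested on single rats: it was 5 without female 4 (3.72% of all probes), 8 without male 2 (5.48%), 9 without male 6 (4.29%), 13 without male 5 (5.24%) or without female 7 (5.41%), 24 without female 3 (6.96%) and 26 without female 8 (8.33%). For the interaction of nostril and sex, 0 of 55 members and 2.36% of all probes had an unadjusted p under 0.05.

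Other cell types were read from lists of markers. In bulk tissue, fewer cells of a type and less RNA per cell cannot be told apart. The 12 probes for mature olfactory neurons, all expressed, had medians of B minus A between -0.14 and 0.22 in the 7 rats, with -0.14 in male 2 and 0.16 in female 8. Their summed level was 1708 to 2093 times the array median in nostril A and 1665 to 2186 in nostril B. The 7 tested sustentacular probes had medians between -0.02 and 0.18, and the 10 immature neuron probes between -0.07 and 0.22. Of the 7 genes of the respiratory secretory and gland list on the array, 4 were tested. Muc5ac, the mucin of airway goblet cells, had B minus A of 3.79 in male 2, 1.26 in female 3, 0.43 in female 4, 1.76 in male 5, 0.58 in male 6, 0.48 in female 7 and -1.13 in female 8. Its highest and lowest rats were those of the heavy chains, but the rats between did not keep their order. Female 4 was at 0.43 beside a heavy chain median of 0.79, and female 3 at 1.26 beside 0.03. Obp3, an odorant-binding protein, differed by 0.60, -0.90, 0.97, 5.04, 2.09, 0.64 and 2.86 in rats 2 to 8, and it was the one probe of the list at an unadjusted p under 0.05. In female 8 it had the opposite sign to Muc5ac and the heavy chains. Plunc stayed between -0.10 and 0.02 and Aqp5 between -0.17 and 0.16, while Scgb1a1, Reg3g and Ltf were detected on 1, 2 and 2 arrays. The summed level of the list was 4017 to 5217 in nostril A and 3969 to 5168 in nostril B. The bone list had medians of -0.48 in male 2, 0.40 in female 3, -0.78 in female 4, -0.49 in male 5, 0.20 in male 6, 0.63 in female 7 and 0.39 in female 8, opposite in sign to the heavy chains in males 2 and 5 and females 4 and 8. Blood markers had medians between -1.42 and 0.32, and the skeletal muscle genes Ckm and Acta1 were detected on 2 arrays each and Tnnt3 on 12. In male 6 and female 7 nostril B was lower in Ckm by differences of -4.24 and -6.22, in Acta1 by -2.70 and -5.25 and in Tnnt3 by -1.05 and -3.48 on the log2 scale. Those of Ckm and Acta1 depend on the floor set on dim signals. Of the dividing cell list, whose medians lay between -0.24 and 0.01, the Aurkb probe differed by 1.06 in male 2, 0.92 in female 4 and -0.36 in female 8. The part of other cell types in the nostril differences was not tested.

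A list of 44 further genes of the motile axoneme and its assembly, outside the name rule, was also read. It had 15 genes and 17 probes on the array, all expressed. None passed 1% between nostrils, and 16 of 17 had B on the higher side, 6 of them at an unadjusted p under 0.05 (3.43% of all probes with B higher). The list's median was 0.17 in male 2, 0.34 in female 4 and -0.08 in female 8. The widest difference in male 2 was that of Tctex1d1 (1.16), whose probe was detected on 11 arrays. It read 0.42 in female 4, -0.45 in male 5, -0.63 in male 6 and -0.02 in female 8, unlike the heavy chains in males 5 and 6. In both male 2 and female 4, those of Ak7, Mdh1b and Iqcg were among the widest, and one probe of Nme7 was at -0.49 in male 2. Ak7, an adenylate kinase of beating cilia, differed by 1.08 in male 2, 1.03 in female 4 and -0.37 in female 8. Mdh1b differed by 0.88, 0.74 and -0.38 and Iqcg by 0.52, 0.51 and -0.28. Cetn2, a centriole protein, differed by 0.04, 0.07 and -0.07. The 20 probes of 14 further transport genes had medians between -0.03 and 0.19 over the rats, and the 17 tested probes of the transition zone and ciliopathy list between -0.09 and 0.10. Between the sexes no probe of these 3 lists passed 1%. A probe of Ccdc39, a gene of axoneme assembly, was higher in females by 0.88 ± 0.14 (SE, limma adjusted p = 0.0699), while its other probe read -0.07 ± 0.08 (adjusted p = 0.689). Between rats of one sex 1 probe passed 1% (2.79% of all probes), for the chaperonin-like Bbs assembly gene Mkks (F = 15.2, limma adjusted p = 0.00732). The other probe of Mkks did not pass (F = 1.34, adjusted p = 0.434).

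Foxj1, the master regulator of motile ciliogenesis, was measured by 1 probe to which the array annotation gives no position. Rat means were 8.53, 8.51, 8.59 and 8.78 in males 1, 2, 5 and 6 and 8.83, 8.66, 8.70 and 8.60 in females 3, 4, 7 and 8, so that the sexes overlapped. Its B minus A difference was 0.35 in male 2, -0.24 in female 3, 0.46 in female 4, 0.16 in male 5, 0.23 in male 6, 0.07 in female 7 and -0.07 in female 8. Over these 7 differences the median correlation with Foxj1 was 0.77 for axoneme members (30 probes), -0.03 for transport members (16 probes) and -0.08 for all 27573 other probes. These values are descriptions over probes that share the same 14 arrays. At an unadjusted exact permutation p under 0.05 there were 22 of 54 members and 11.1% of all probes. None passed 5% after adjustment over all probes.

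**Figure D4:**
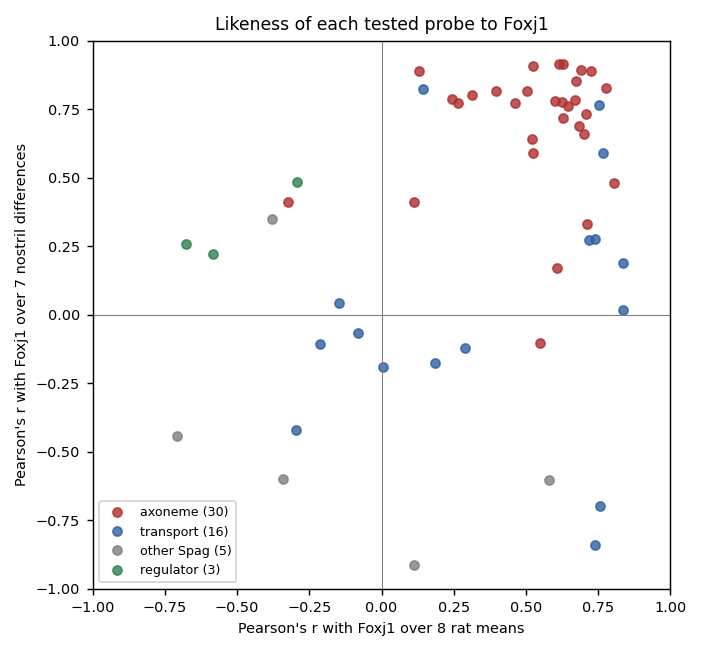
Pearson's r of each tested probe with Foxj1 over the 8 rat means (x axis) against r over the 7 nostril differences (y axis), colored by class. Most axoneme probes lie above 0 on both axes, while transport probes reach 0.84 over rats but center near 0 over nostril differences.

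Dnai2 followed Foxj1 with r = 0.91 over the 7 nostril differences (two-sided exact permutation p = 0.00754, adjusted p = 0.301; Spearman's rho 0.93, exact p = 0.00675). Without the 2 rats farthest from the median of Foxj1, females 3 and 4, r was 0.94. Tekt4 had r = 0.91 (exact p = 0.00774, adjusted p = 0.301; rho 0.89, exact p = 0.0123), and 0.96 without these rats. At the other end stood one probe of Spag9, with r = -0.92 (exact p = 0.00437, adjusted p = 0.278). None of the 3 passed adjustment.

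Across the 8 rat means Foxj1 did not pass the test between rats of one sex (F = 0.93, limma adjusted p = 0.594). The median r was 0.54 over 54 members, 0.61 over axoneme probes and 0.50 over transport probes, against 0.13 over all probes. At an unadjusted exact p under 0.05 there were 13 of 54 members and 7.3% of all probes, and none passed 5% after adjustment. The 5 highest were Bbs5 (r = 0.84), Ift74 (0.84), Tekt2 (0.80), Dnah7 (0.78) and Bbs2 (0.77). For Bbs5, exact permutation gave p = 0.0101 (adjusted 0.632), rho was 0.88 (exact p = 0.00724), and r was 0.99 without female 3 and male 6, the rats farthest from the median. The 5 lowest were Spag5 (r = -0.71), Rfx1 (-0.68), Rfx5 (-0.58), one probe of Spag9 (-0.38) and Spag4 (-0.34). For Rfx1 r turned to 0.16 without these 2 rats, so that its negative value rested on them. Foxj1 itself spanned 0.32 log2 units over the rats.

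The Rfx factors bind X-box motifs in promoters of ciliary genes. Rfx3 was expressed on all 15 arrays, with rat means of 2.53, 2.46, 2.66 and 2.56 in males 1, 2, 5 and 6 and 2.33, 2.30, 2.38 and 2.33 in females 3, 4, 7 and 8. The sexes did not overlap, with every male above every female, but the difference did not pass (female minus male -0.21 ± 0.07, SE, n = 4 and 4, limma adjusted p = 0.162). Rfx1 was well above background on 9 arrays and Rfx5 on 8, so both were weakly expressed. Between nostrils Rfx3 stayed within -0.10 and 0.05.

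Promoters from RefSeq (build GRCr8, 250 bases before the start) were on hand for 34 of the 42 current genes that the names matched. Paired arms of the X-box, GTTNCC and GGNAAC with 0 to 3 bases between them, were in 0 of 34 member promoters and in 0.729% of all 33469 promoters. A broader pair, GTNNCC and NGNAAC or its reverse complement, chosen after seeing the first result, was in 5 of 34 (14.7%) and in 4.02% of all promoters. A single arm, GTTGCC on either strand, was in 12 of 34 (35.3%) and in 9.89% of all promoters. Promoters of 3 genes (Dnai2, Spag6 and Tekt2) held both, and in each of them a single arm lies inside the pair. The 12 genes were Bbs5, Dnah10, Dnai2, Ift88, Kif3a, Kif3c, Rfx1, Rfx3, Spag4, Spag6, Tekt1 and Tekt2. Matches are letters found in a window and not binding sites.
Stretches are shown for 5 genes of separate roles, so that the match can be seen beside its surroundings (capitals mark the broader pair in Dnai2, Dnah9 and Tekt2 and the single arm in Bbs5 and Ift88).
Dnai2, chr10:100258920-100259019, plus strand: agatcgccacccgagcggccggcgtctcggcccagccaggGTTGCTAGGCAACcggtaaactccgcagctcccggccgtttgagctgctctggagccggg
Tekt2, chr5:143907725-143907800, minus strand: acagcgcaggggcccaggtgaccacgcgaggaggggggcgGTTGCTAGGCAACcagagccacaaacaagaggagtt
Dnah9, chr10:51364023-51364122, minus strand: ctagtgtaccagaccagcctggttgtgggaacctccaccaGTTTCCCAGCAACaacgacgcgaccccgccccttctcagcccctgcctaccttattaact
Bbs5, chr3:74818561-74818639, plus strand: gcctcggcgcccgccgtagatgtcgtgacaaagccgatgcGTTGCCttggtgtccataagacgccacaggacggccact
Ift88, chr15:35688913-35688986, plus strand: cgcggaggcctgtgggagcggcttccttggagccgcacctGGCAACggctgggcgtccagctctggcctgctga
Dnai2 and Tekt2 carried the same letters in capitals, and Dnai2 differed by 0.90 between the nostrils of male 2 and Tekt2 by -0.03.

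Males and females were compared on the means of the rats. No member passed 1% or 5%, whereas 0.0434% and 0.0724% of all probes did. At an unadjusted p under 0.05 there were 10 of 55 members, 8 of them higher in females, against 17.1% of all probes. The median of female minus male was 0.15 over the 30 axoneme probes, 0.08 over the 16 transport probes and 0.01 over all probes. This count was 6 without male 2 (16.6% of all probes), 5 without female 3 (13.2%) and 24 without male 6 (14.9%). With the 15 arrays in the fit and the rat as a random block, 3 members passed 5% (Spag9, Dnalc4 and Rfx3, limma adjusted p = 0.0259, 0.0280 and 0.0420), against 3.39% of all probes. With the slide as a fixed block besides, 1 did (5.63% of all probes), and none of these 3. Slides 1 and 3 held arrays of males, apart from nostril A of female 3, and slides 2 and 4 held arrays of females, so sex and slide can hardly be told apart and a difference with the slide as a block rests on the arrays of female 3.

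**Figure D5:**
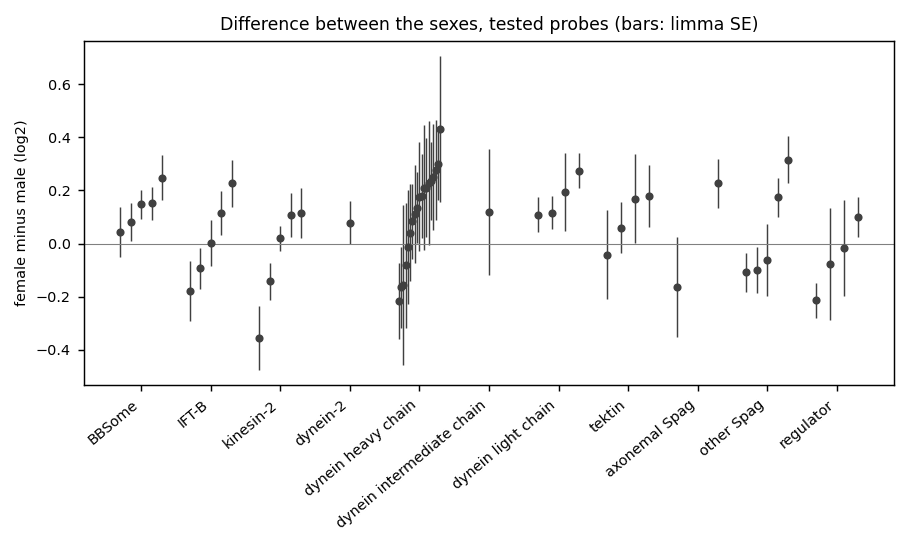
Female minus male difference (log2, y axis) of each tested probe, with its standard error from limma on 4 and 4 rat means, grouped by role (x axis). Most points lie within 0.3 of 0, heavy chains have the widest bars, and no member passed the threshold.

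The 6 members with the smallest p between the sexes were probes of Dnalc4, Spag9, Rfx3, Kif3b, Bbs7 and Bbs2. Dnalc4, a dynein light chain, was at 3.76, 3.75, 3.62 and 3.72 in males 1, 2, 5 and 6 and at 4.07, 3.99, 4.02 and 3.87 in females 3, 4, 7 and 8. Every female lay above every male, by 0.27 ± 0.07 on average (SE, n = 4 and 4, limma adjusted p = 0.113). Its other probe read 0.12 ± 0.06 (adjusted p = 0.375), with overlap. Spag9, a scaffold protein of JNK signaling that is not an axoneme part, was at 3.71, 3.69, 3.34 and 3.43 in the males and 3.85, 3.90, 3.85 and 3.83 in the females (0.32 ± 0.09, adjusted p = 0.139). With the slide as a fixed block this difference was 0.09, and that of Rfx3 was -0.11. Its other probe, by contrast, read -0.10 ± 0.09 (adjusted p = 0.589).

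Kif3b, a motor subunit of kinesin-2, had 3 probes that disagreed. One was at 3.00, 3.21, 3.03 and 2.97 in males 1, 2, 5 and 6 and at 2.94, 2.86, 2.55 and 2.43 in females 3, 4, 7 and 8 (-0.35 ± 0.12, adjusted p = 0.186). The others gave 0.02 ± 0.05 and 0.12 ± 0.09 (adjusted p = 0.870 and 0.556). Bbs7 was at 4.29, 4.23, 4.53 and 4.51 in the males and 4.72, 4.72, 4.56 and 4.55 in the females (0.25 ± 0.09, adjusted p = 0.194). Bbs2 was at 5.24, 5.14, 5.26 and 5.30 in the males and 5.42, 5.39, 5.37 and 5.34 in the females (0.15 ± 0.05, adjusted p = 0.216), and its difference was 0.24 with the slide as a fixed block. In both BBSome genes every female lay above every male. Groups that did not overlap were found in 6 of 55 members and in 11.3% of all probes.

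Rats of the same sex were compared against the difference between their nostrils. Only Tekt3 passed 1% (1 of 55 members, with 2.79% of all probes), and 6 of 55 members passed 5%, with 16.1% of all probes. Tekt3 was at 3.14, 3.40, 3.69 and 3.76 in males 1, 2, 5 and 6 and at 3.32, 3.13, 3.76 and 3.61 in females 3, 4, 7 and 8 (F = 15.3, limma adjusted p = 0.00715). Males 5 and 6 and females 7 and 8, on slides 3 and 4, were the higher rats, and males 1 and 2 and females 3 and 4, on slides 1 and 2, the lower ones. Whether this split also follows the supplier of the rats was not tested. With the slide as a block no member passed 1% or 5% (Tekt3 adjusted p = 0.340), and 0.00363% of all probes passed 1%, so that slide and rat can only partly be told apart. Without male 2, male 5, female 4, female 7 or female 8, Tekt3 had an adjusted p of 0.0126 to 0.0298.

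Past 5% were also Ift80 (adjusted p = 0.0185), Bbs4 (0.0300), Spag9 (0.0357), Tekt2 (0.0404) and Spag1 (0.0408), by the same test. Ift80, an IFT-B subunit, was at 5.21, 5.28, 5.48 and 5.48 in the males and 5.24, 4.90, 5.42 and 5.18 in the females. Female 4 was the lowest rat. Bbs4 was at 4.81, 4.78, 4.55 and 4.50 in the males and 4.82, 4.73, 4.73 and 4.53 in the females, with male 6 lowest. Spag1 was at 3.05, 2.80, 3.03 and 3.25 in the males and 3.25, 3.22, 3.26 and 3.31 in the females, with male 2 lowest. The other 4 of the 10 smallest p values belonged to Ift74, Kif3b, Bbs1 and Dnali1, with adjusted p of 0.0595 to 0.0997. Among these, Bbs1 ran from 4.00 in male 1 to 4.27 in male 6 and Ift74 from 6.44 in male 1 to 6.99 in female 3. The kinesin-2 subunit Kif3c ran from 5.75 in female 4 to 6.09 in male 5 (adjusted p = 0.287), and the brightest Kif3b probe from 7.81 in female 8 to 7.92 in female 3 (adjusted p = 0.559).

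The heavy chains had wide ranges over rats without passing this test. Their median range over the 8 rats was 0.82 log2 units, against 0.47 over all probes. The median of the SD within rats, as moderated by limma in this fit, was 0.38, against 0.12. For transport genes these medians were 0.32 and 0.08. Dnah3 was at 1.73, 1.60, 2.13 and 2.98 in males 1, 2, 5 and 6 and at 1.59, 1.61, 2.23 and 2.37 in females 3, 4, 7 and 8 (F = 3.08, adjusted p = 0.142). Male 6 was the highest rat for Dnah3, and it held the highest array of 9 of the 19 heavy chain probes (7 in nostril B and 2 in nostril A). Nostril A of male 2 held the lowest array of 16 of the 19.

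In 3 genes with several expressed probes the probes differed in their pattern over the rats. The lowest correlation between probes over 8 rat means was -0.21 for Spag9, -0.09 for Kif3b and 0.35 for Dnah11. For Dnah11, an outer arm heavy chain, female minus male was -0.22 ± 0.14 at one probe and 0.23 ± 0.15 at the other (adjusted p = 0.464 and 0.440), yet the nostril differences of the probes correlated at 0.81. In Dnah7 and Dnah1, by comparison, correlations over the rats were at least 0.93 and 0.92.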

How the data were processed

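Per the labels, total RNA of each nostril was labeled with Cy3 and hybridized to Agilent whole rat genome arrays of 60-base probes. The authors extracted spot intensity with Agilent Feature Extraction (9.5.1.1 per the file headers). The processed intensity used here had background removed and was not scaled between arrays. Detection and outlier flags are the software's, as deposited. The deposited ratio table, each signal over its array and probe medians, served as an alternative. The authors left out 1 RNA sample of low integrity.

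Spots marked as outliers (61 to 175 per array) were dropped, spots of a probe averaged, and signals divided by the array median (57.4 to 83.4 intensity units), floored at 0.1 and taken to log2. Probes well above background on at least 7 arrays were tested with limma 3.58.1 in R 4.3.3. Sex was tested on rat means, nostril with the rat as a block, and rats of one sex by an F test against the difference between nostrils, with Benjamini-Hochberg adjustment over all probes tested (27625 for sex, 27574 otherwise) at 1%, the study's threshold. The fits were tested on simulated data. Correlations used exact permutation. Nothing says that the nostrils of a rat are independent samples, so sex was tested over rats. The number of arrays limits the precision. Promoters came from RefSeq (GRCr8).

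Members were chosen by name. They, the marker lists and the genes named were chosen with earlier results of these data known. Named were, per role, the brightest probe of the 3 genes with the highest level, Foxj1 and Rfx genes, the 10, 6 and 4 smallest p values between rats, sexes and nostrils, the 3 genes whose probes differed most over rats, the 5 highest and 5 lowest correlations with Foxj1, and undetected members by name. Other genes named with values were chosen after their values were seen. The supplier of a rat was not analysed here. Alternatives were another scaling (75th percentile, quantile), normexp background correction (offset 50), other filters, floor 0.05, the ratio table, other models including the slide and the methods' t-test, and leaving out each rat. The lists for blood, bone, skeletal muscle, basal and dividing cells gave 0 probes past 1% between nostrils or sexes, and 10 probes of the motile ciliated cell list included 8 members.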

Additional observations from a re-analysis of the deposited data

Results flagged for a closer look

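Among the 42 named probes, 126 sets of values (males, females and nostril differences) were examined for a rat far from the others, of which chance alone would give about 6.3 (1 in 20). There were 4. Dnalc4 was highest in male 5 among the males at one probe (6.07, next 5.99), and its nostril difference there was highest in male 6 (0.20, next 0.08). Spag7 was lowest in male 1 among the males (4.50, next 4.61). One probe of Kif3b was highest in male 6 among the males (0.40, next 0.24).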

How the results depend on the processing

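The counts of members expressed, of members between nostrils (0 past 1% under each alternative run) and both median correlations with Foxj1 kept their side and direction under each alternative run, with 49 to 64 of 70 members expressed. With a Dnai2 reference, chosen after seeing the data, the medians were 0.55 across rats and 0.52 in nostril differences, from 0.54 and 0.54. Members past 1% between the sexes were 0 throughout, except 3 (Dnalc4, Spag9 and Rfx3) when the 15 arrays were taken as independent. That fit counts nostrils as rats, and 1031 of all probes (3.74%) passed, from 12 (0.0434%). The methods' t-test gave 0 members, beside 0.029% of all probes. Between rats of one sex the count of 1 became 3 with quantile scaling (Tekt3, Bbs4 and Spag9), where 1450 of all probes (5.26%) passed, from 768 (2.79%). It became 0 with normexp (0.283% of all probes), without a filter (2.4%) and with the slide as a block (0.00363%). Leaving out a rat gave 0 to 1 past 1% (0.675% to 3.25% of all probes). At 5% it gave 1 to 8 in place of 6, with 7.11% to 20.6% of all probes in place of 16.1%. The count was 1 without female 7 (7.11% of all probes), 2 without male 2 (9.39%) or male 5 (11.3%) and 3 without female 8 (9.3%). At 5% normexp gave 0 (0.671% of all probes) and so did the slide block (0.116%). Members at p under 0.05 between the sexes numbered 2 in place of 10 with normexp (6.63% in place of 17.1% of all probes). The nostril test was paired by rat. No paired analysis was possible because replicate numbers name different rats in each sex, for the comparison of the sexes. The medians of nostril B minus A over the heavy chains in male 2 and female 8 were 1.16 and -0.46 by the 75th percentile, 1.13 and -0.45 by quantile scaling and 0.50 and -0.24 by normexp. With normexp the median of all probes was -0.63 in female 4, where heavy chains stood at 0.23. With normexp and its offset, members at p under 0.05 between nostrils numbered 8 in place of 21 (1.87% of all probes), and without the rat in the model there were 4. The cause of these shifts was not tested. Probes near the floor carry little signal over background, and 15 probes were not tested.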
